A study of Canis lupus familiaris with 22 samples.

Results

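The expression of 4 genes that are typical of fat tissue, ADIPOQ, CD36, LEP and PCK1, was examined in mammary tissue of dogs. They were chosen by name from the canine RefSeq transcripts that the array targets, and every probe of each was kept. All 4 genes were found, among 1458 genes with a symbol and 36625 targets on the array. They are covered by 8 probes, with 1 probe for CD36, 2 each for ADIPOQ and LEP and 3 for PCK1. Where a gene has several probes they are called probe A, probe B and probe C, from the highest to the lowest mean level, and probe A stands for its gene. For LEP this is a convention only, since its 2 probes disagree and which of them measures LEP was not tested. All 8 probes passed the filter for testing (well above background on at least 4 of 19 arrays), but only 3 of them, ADIPOQ probe A, CD36 and LEP probe A, were well above background on every array.

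The mammary gland lies in a pad of fat, and a piece of mammary tissue can hold adipocytes beside epithelium, vessels and connective tissue. Adipocytes secrete adiponectin (ADIPOQ) and leptin (LEP), take up fatty acids with the help of CD36 and use PCK1 to make the glycerol backbone of stored fat. ADIPOQ is largely restricted to adipocytes, whereas CD36 is also made by endothelium, macrophages and the secretory epithelium of the udder or breast, and PCK1 is best known from liver and kidney.

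RNA of malignant mammary tumours, benign mammary tumours and healthy mammary tissue was labelled with a single dye and hybridised to Agilent canine arrays, with an RNA integrity number above the limit set in the study for every sample. The labels give no age, breed or treatment for any group, and each group is made of different dogs. The labels call the a and b arrays of a number biological duplicates, whereas the methods of the study describe duplicate arrays of each sample, so the 2 arrays of a number were averaged and each number was counted as 1 dog. Scanner values were analysed for 5 malignant, 3 benign and 2 healthy dogs on 19 arrays, and between 62.2% and 83.2% of the probes of an array were well above background. Malignant dog 5 bears the code of a lipid rich carcinoma in the histology of the tumours, a type that the array labels do not give. Further benign and healthy dogs of the study were not analysed here. A level below is the log2 signal of a probe minus the 75th percentile of its array, so that 0 is the 75th percentile. The number of arrays and dogs limits the precision of every value.

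The dogs are not alike in ways that the groups do not describe, and these differences bear on all results. The only array of malignant dog 5 with scanner values is alone on its slide, scan day and scanner, so that this dog cannot be told apart from its slide, and results are given with and without it. The other 18 arrays lie on 5 slides that each hold more than 1 group. A list of 8 mammary epithelium genes had a summed level of 36.8 in healthy dog 1 and 80.9 in healthy dog 2, in multiples of the 75th percentile. In healthy dog 1 most of this was KRT14 (3.92), KRT19 (3.34) and CDH1 (2.69). Its other genes there were TFF1 (1.42), ERBB2 (0.59), PGR (-0.50), MUC1 (-2.77) and ESR1 (-6.52). A sum of 3 milk protein genes was 14.0 in healthy dog 2 and 0.201 in healthy dog 1, the lowest of the 10 dogs. The healthy tissue also carried 7 genes of the exocrine pancreas at summed levels of 4638 in healthy dog 1 and 1067 in healthy dog 2, against 1.63 to 3.57 in the tumours. Every comparison with healthy tissue below is therefore one with tissue that also carries these genes. Whether the healthy samples are of mammary tissue alone was not tested. In malignant dog 5 the same epithelial genes summed to 3.51, the lowest of the 10 dogs, and KRT19 was at -3.56 there against 1.20 to 6.67 in the other dogs.

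No probe of the 4 genes passed the test in any comparison. In malignant tumours against healthy tissue 0 of 8 probes were called by limma (adjusted p of at most 0.05), where 0.416% of all 35310 probes tested were called, and the groups did not overlap in 0 of 8 probes, against 7.09% of all probes. In benign tumours against healthy tissue 0 of 8 probes were called, beside 0.379% of all probes, and the groups did not overlap in 2 of 8 probes (LEP probe B and PCK1 probe B), beside 23.5%. For PCK1 probe B this order holds little, as 5 of 6 benign arrays and 1 array of healthy dog 1 were at background. In malignant against benign tumours 0 of 8 probes were called, beside 0% of all probes, and only ADIPOQ probe A kept the groups apart, 1 of 8 probes beside 1.95%. At an unadjusted p of 0.05, limma passed 2 of 8 probes against healthy tissue in malignant tumours and the same count in benign tumours, PCK1 probes B and C both times, where 5.81% and 6.79% of all probes passed, and 0 of 8 in malignant against benign tumours, beside 1.8%. The methods' t-test, run unpaired, passed 0 of 8 in each comparison with and without adjustment. The 147 and 134 probes called over the whole array in malignant and in benign tumours against healthy tissue were lower in the tumours, except 1 of the 134. This split was not the same under every alternative, and without healthy dog 2 there were 100 higher and 850 lower in malignant and 156 higher and 837 lower in benign tumours. Between malignant and benign tumours limma called 0 probes, with 637 at an unadjusted p of 0.05, and the methods' t-test called 803 without adjustment and 0 with that of Benjamini and Hochberg. Both comparisons with healthy tissue use the same 2 dogs and are therefore not independent of each other.

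**Figure D1:**
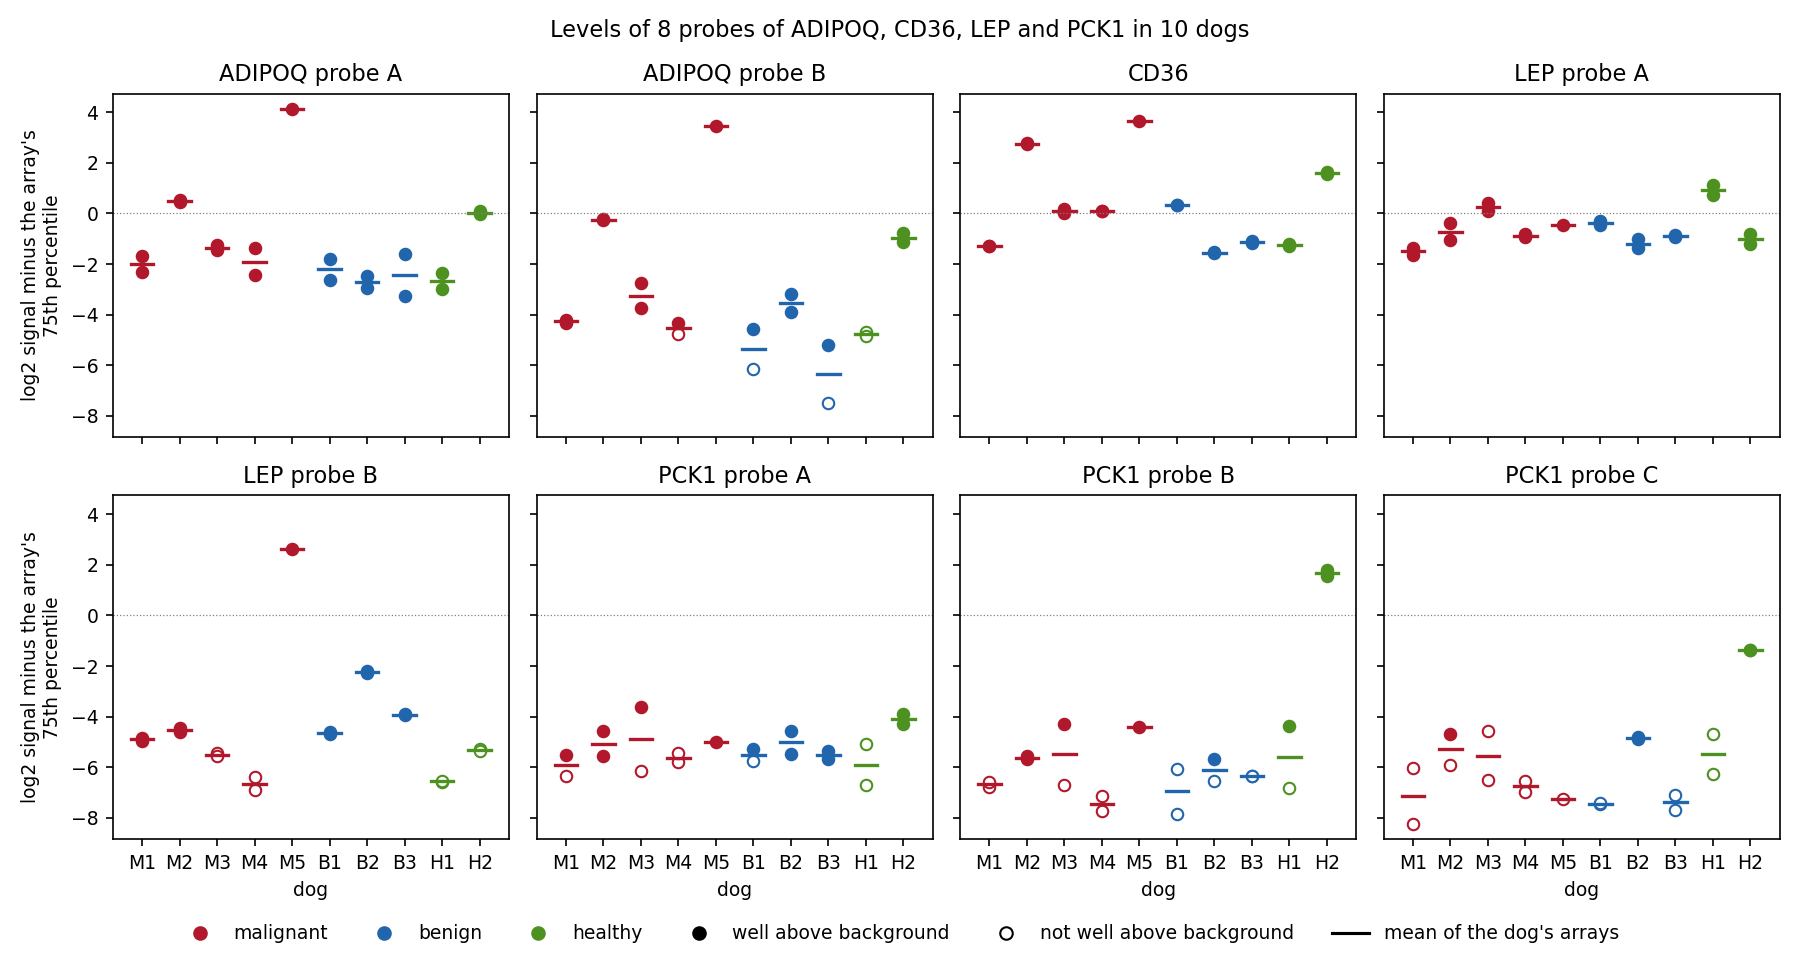
Levels of the 8 probes on every array, as log2 signal minus the 75th percentile of the array (vertical axis), for malignant dogs M1 to M5, benign dogs B1 to B3 and healthy dogs H1 and H2 (horizontal axis). Points are arrays, open where the probe was not well above background, and short lines are the means of each dog. M5 is highest in both ADIPOQ probes, CD36 and LEP probe B, and H2 is highest in the 3 PCK1 probes.

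ADIPOQ, the gene of the hormone adiponectin, was highest in malignant dog 5 and lowest as a group in benign tumours. With ADIPOQ probe A the levels were -1.998, 0.48, -1.36, -1.92 and 4.12 in malignant dogs 1 to 5. They were -2.20, -2.71 and -2.44 in benign dogs 1 to 3. In healthy dogs 1 and 2 they were -2.68 and 0.02. All 5 malignant dogs thus lay above all 3 benign dogs, although malignant dog 1 and benign dog 1 differed by less than the arrays of a dog did, whose median gap was 0.63 and whose largest was 1.66 in benign dog 3. The 2 healthy dogs stood at opposite ends, one beside the benign tumours and the other beside malignant dog 2.

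The mean level of ADIPOQ probe A was -0.13 ± 2.58 (SD, n = 5) in malignant tumours, -2.45 ± 0.26 (n = 3) in benign tumours and -1.33 ± 1.91 (n = 2) in healthy tissue. Malignant tumours exceeded benign tumours by a log2 fold change of 2.32 (SE 1.27, adjusted p = 1), with 5 of 5 malignant dogs above every benign dog. The order of the means, malignant, healthy, benign, held no neighbours that differed beyond their spread. Against healthy tissue the log2 fold change was 1.19 (SE 1.46, adjusted p = 0.959) in malignant tumours, and 2 of 5 dogs lay above both healthy dogs. It was -1.13 (SE 1.59, adjusted p = 0.959) in benign tumours, with 1 of 3 dogs below both healthy dogs.

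Single dogs decided much of these differences in ADIPOQ. Without malignant dog 5 the log2 fold change of ADIPOQ probe A between malignant and benign tumours was 1.25, and that between malignant tumours and healthy tissue was 0.13. Without healthy dog 1 the latter turned to -0.16, and without healthy dog 2 it was 2.54. Within slides malignant arrays exceeded benign arrays in ADIPOQ probe A by 0.95, 1.17, 0.32 and 2.04 on slides 2, 3, 5 and 6. Malignant dog 5 is on none of these slides, so the direction between tumour groups did not rest on it. Against healthy arrays the difference of malignant arrays was -0.15, 1.46 and -1.47 on slides 2, 4 and 5, with no common direction, and benign minus healthy arrays gave -1.10 and -1.78 on slides 2 and 5. With the slide as a block the log2 fold change of ADIPOQ probe A was 1.35 between malignant and benign tumours, 0.45 between malignant tumours and healthy tissue and -0.90 between benign tumours and healthy tissue.

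The second probe of ADIPOQ gave the same dogs as highest. ADIPOQ probe B was at -4.26, -0.25, -3.25, -4.54 and 3.44 in malignant dogs 1 to 5. It was at -5.36, -3.53 and -6.35 in the benign dogs and at -4.77 and -0.97 in the healthy dogs. It was well above background on 8 of 9 malignant, 4 of 6 benign and 2 of 4 healthy arrays. Malignant dogs 5 and 2 and healthy dog 2 were again the upper 3, and the malignant and benign groups overlapped here, with 3 of 5 malignant dogs above every benign dog. The log2 fold change was 3.31 (SE 1.72, adjusted p = 1) between malignant and benign tumours. It was 1.09 (SE 1.97, adjusted p = 0.976) between malignant tumours and healthy tissue and turned to -0.21 without malignant dog 5 and to -0.81 without healthy dog 1. In benign tumours against healthy tissue it was -2.22 (SE 2.14, adjusted p = 0.915), with 2 of 3 benign dogs below both healthy dogs. With the slide as a block the 3 values were 2.15, 0.07 and -2.07. Both arrays of healthy dog 1 were at background in this probe, so its log2 fold changes against healthy tissue have no exact size. The order of benign dogs below healthy dog 1 therefore holds little.

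LEP encodes leptin, the hormone through which fat stores act on appetite, and its 2 probes disagreed. With LEP probe A, well above background on 19 of 19 arrays, the levels were -1.50, -0.72, 0.24, -0.88 and -0.46 in malignant dogs 1 to 5. They were -0.38, -1.21 and -0.88 in the benign dogs and 0.93 and -1.01 in the healthy dogs. The highest level was thus that of healthy dog 1, followed by malignant dog 3, and healthy dog 1 was next to lowest in ADIPOQ probe A. The range over all dogs was narrow, and the groups overlapped in every comparison. The means were -0.66 ± 0.63 (SD, n = 5), -0.82 ± 0.42 (n = 3) and -0.04 ± 1.37 (n = 2) in malignant, benign and healthy tissue. The log2 fold change was -0.62 (SE 0.63, adjusted p = 0.955) in malignant tumours and -0.78 (SE 0.68, adjusted p = 0.892) in benign tumours against healthy tissue, and without healthy dog 1 these turned to 0.35 and 0.18. Between malignant and benign tumours it was 0.16 (SE 0.55, adjusted p = 1), and it turned to -0.06 without malignant dog 3 and to -0.03 without benign dog 2.

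The 2 dogs highest in LEP probe A, healthy dog 1 and malignant dog 3, had dim arrays. The next highest were benign dog 1, with some of the brightest arrays, and malignant dog 5, with a dim one. Before scaling, the 75th percentile of the signal was 299.5 and 330.1 on the arrays of malignant dog 3, 517 and 360.3 on those of healthy dog 1 and 453 in malignant dog 5, against 612 to 1638 on all other arrays, with 1632 and 1428 in benign dog 1. The part of this in the level of LEP probe A was not tested. Within slides malignant minus healthy arrays gave -1.61, -1.92 and 0.01 for LEP probe A on slides 2, 4 and 5. Malignant minus benign arrays gave -1.19, 0.72, -0.23 and 1.03 on slides 2, 3, 5 and 6, with both directions present. Benign minus healthy arrays gave -0.42 and 0.24 on slides 2 and 5. With the slide as a block the log2 fold changes were -0.82 in malignant and -0.98 in benign tumours against healthy tissue, and 0.16 between the tumour groups.

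LEP probe B, which is printed in 5 spots per array, showed a single dog far above the others. Its levels were -4.89, -4.54, -5.50, -6.65 and 2.62 in malignant dogs 1 to 5. They were -4.64, -2.23 and -3.92 in benign dogs 1 to 3. In the healthy dogs they were -6.55 and -5.31, and 0 of 4 healthy arrays were well above background, against 5 of 9 malignant and 6 of 6 benign arrays. Malignant dog 5, the dog with the highest ADIPOQ and CD36, was also highest in LEP probe B, whereas benign dog 2, second in LEP probe B, was the lowest of all dogs in ADIPOQ probe A and CD36. All 3 benign dogs lay above both healthy dogs, and the malignant dogs overlapped with both groups.

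Because healthy tissue gave only a bound with LEP probe B, the healthy mean was taken over the higher of the probe's own level and the lowest level well above background on each array. On that scale LEP probe B was at least 2.49-fold higher in benign tumours than in healthy tissue (at least 1.55-fold without benign dog 2), and at least 2.17-fold higher in malignant tumours only with malignant dog 5, without which the malignant mean (-5.40) lay below the raised healthy mean (-4.91). The measured levels, which are what limma tested, gave an adjusted p of 0.904 in benign and 0.952 in malignant tumours. The measured means were -3.79 ± 3.67 (SD, n = 5) in malignant, -3.60 ± 1.23 (n = 3) in benign and -5.93 ± 0.88 (n = 2) in healthy tissue. The direction in benign tumours was not the same under every alternative, with a log2 fold change of 2.34 (SE 2.16) on the processed signal and -0.25 after normexp. Between malignant and benign tumours LEP probe B differed by -0.20 (SE 1.73, adjusted p = 1), with 1 of 5 malignant dogs above and 3 of 5 below every benign dog. This value was -1.80 without malignant dog 5. It turned to 0.94 after normexp, 0.76 in the table of signals of the same arrays and 0.77 in that of all 22 arrays. With levels at background raised it was 0.26. It also turned without malignant dog 1, 3 or 4 or benign dog 2, with 0.52 the highest of these. Within slides malignant minus benign arrays gave -0.24, -2.82, -2.62 and -2.81 for LEP probe B on slides 2, 3, 5 and 6, although malignant dogs 3 and 4 were at background there. Differences from healthy arrays within slides have no exact size for this probe and are not given. With the slide as a block its log2 fold change was -1.82 between the tumour groups. Against healthy tissue its direction was the same in the blocked fit. Normexp moved the median of all probes to -0.19 in malignant and to -0.49 in benign tumours against healthy tissue and to 0.33 between the tumour groups, and the table of signals of the same arrays moved it to -0.15, -0.36 and 0.24 (from 0.07, 0.03 and 0.06 on the processed signal). Raised levels moved it to -0.11 in benign tumours against healthy tissue.

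CD36, the surface receptor that takes up long-chain fatty acids, was high in the same 3 dogs as ADIPOQ. Its levels were -1.29, 2.76, 0.09, 0.10 and 3.65 in malignant dogs 1 to 5. They were 0.31, -1.55 and -1.12 in the benign dogs and -1.26 and 1.59 in the healthy dogs. Malignant dogs 5 and 2 were highest and healthy dog 2 followed, while malignant dog 1 lay as low as healthy dog 1 and 2 of the benign dogs. Arrays of the same dog agreed closely, with a median gap of 0.06 and a largest gap of 0.18 in malignant dog 3, so the spread of CD36 is between dogs rather than between arrays.

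The mean level of CD36 was 1.06 ± 2.06 (SD, n = 5) in malignant tumours, -0.79 ± 0.98 (n = 3) in benign tumours and 0.17 ± 2.01 (n = 2) in healthy tissue. The groups followed the order of ADIPOQ, and again no neighbours differed beyond their spread. The log2 fold change was 1.85 (SE 1.12, adjusted p = 1) between malignant and benign tumours, where 2 of 5 malignant dogs lay above every benign dog. It was 0.89 (SE 1.28, adjusted p = 0.97) between malignant tumours and healthy tissue, with 2 of 5 dogs above and 1 of 5 below both healthy dogs. In benign tumours against healthy tissue it was -0.95 (SE 1.40, adjusted p = 0.961), with 1 of 3 dogs below both healthy dogs.

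As with ADIPOQ, the healthy dog left out set the sign for CD36. The log2 fold change of CD36 in malignant tumours against healthy tissue was 0.25 without malignant dog 5, and leaving out healthy dog 1 or 2 gave -0.53 or 2.32. In benign tumours these were -2.38 and 0.47, and ADIPOQ probe A likewise gave -2.48 and 0.22. Malignant minus benign arrays gave -1.61, 1.46, 0.54 and 2.89 for CD36 on slides 2, 3, 5 and 6, of which slide 2 holds malignant dog 1 and benign dog 1. Malignant minus healthy arrays gave -1.43, 1.97 and -1.52 on slides 2, 4 and 5, and benign minus healthy arrays gave 0.18 and -2.06 on slides 2 and 5. Without malignant dog 5 the malignant tumours exceeded the benign tumours by 1.20, and the same value was found with the slide as a block. With that block the log2 fold change was 0.23 in malignant and -0.97 in benign tumours against healthy tissue.

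PCK1, the cytosolic phosphoenolpyruvate carboxykinase, serves glyceroneogenesis in fat and gluconeogenesis in liver and kidney, and it was near background in nearly all dogs. With PCK1 probe A the levels were -5.93, -5.06, -4.89, -5.62 and -4.99 in malignant dogs 1 to 5. They were -5.53, -5.01 and -5.50 in the benign dogs and -5.89 and -4.08 in the healthy dogs. Healthy dog 2 was highest, and all other dogs lay within about 1 log2 unit of each other. This probe was well above background on 5 of 9 malignant, 5 of 6 benign and 2 of 4 healthy arrays, and its arrays differed by up to 2.55 in malignant dog 3. Its means were -5.30 ± 0.45 (SD, n = 5), -5.35 ± 0.29 (n = 3) and -4.98 ± 1.28 (n = 2) in malignant, benign and healthy tissue. The log2 fold change was -0.31 (SE 0.56, adjusted p = 0.976) in malignant and -0.36 (SE 0.61, adjusted p = 0.97) in benign tumours against healthy tissue. Without healthy dog 2 these turned to 0.59 and 0.54, which have no exact size, as healthy dog 1 was at background on both arrays. Between the tumour groups the log2 fold change was 0.05 (SE 0.49, adjusted p = 1) and turned to -0.03 without malignant dog 5. It also turned without malignant dog 2 or 3 and without benign dog 1 or 3, with -0.054 the lowest.

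The other PCK1 probes set healthy dog 2 apart by much more. PCK1 probe B was at 1.67 in healthy dog 2, on both of whose arrays it was well above background, and at -5.59 in healthy dog 1. It was at -6.68, -5.62, -5.49, -7.44 and -4.41 in malignant dogs 1 to 5 and at -6.96, -6.11 and -6.36 in the benign dogs. All 3 benign dogs lay below both healthy dogs, 3 of 5 malignant dogs did, and the probe was well above background on 4 of 9 malignant and 1 of 6 benign arrays. PCK1 probe C was at -1.36 in healthy dog 2 and -5.46 in healthy dog 1. It was at -7.14, -5.29, -5.54, -6.75 and -7.25 in the malignant dogs and at -7.43, -4.84 and -7.38 in the benign dogs, and it was well above background on 1 of 9 malignant, 2 of 6 benign and 2 of 4 healthy arrays. In both probes healthy dog 2 was the only dog far above background, and in PCK1 probe C malignant dog 5 was not well above it.

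The log2 fold change of PCK1 probe B was -3.97 (SE 1.498, adjusted p = 0.788) in malignant tumours and -4.52 (SE 1.63, adjusted p = 0.654) in benign tumours against healthy tissue. Without healthy dog 1, when healthy dog 2 stands alone for its group and is assumed to vary like the others, these were -7.60 (adjusted p = 0.00922) and -8.14 (adjusted p = 0.00973) and passed the test. Most tumour arrays were at background in this probe and in PCK1 probe C, so the values of both give a direction and no exact size. With healthy dog 2 left out they were -0.34 and -0.89. PCK1 probe C gave -2.99 (SE 1.096, adjusted p = 0.755) and -3.14 (SE 1.20, adjusted p = 0.677), and -0.93 and -1.09 without healthy dog 2. The low values of PCK1 in tumours against healthy tissue therefore rested on a single healthy dog. Between malignant and benign tumours the log2 fold change was 0.55 (SE 1.31, adjusted p = 1) with PCK1 probe B and 0.16 (SE 0.96, adjusted p = 1) with PCK1 probe C. The latter turned to -0.29 without benign dog 1, -0.26 without benign dog 3, -0.12 without malignant dog 2 and -0.06 without malignant dog 3. With the slide as a block PCK1 probe B was at -4.52 in malignant and -4.77 in benign tumours against healthy tissue. With that block PCK1 probe C was at -2.76 and -3.43 and PCK1 probe A at -0.53 and -0.62, and between the tumour groups PCK1 probes A, B and C were at 0.08, 0.26 and 0.66. On slide 4, which holds healthy dog 1 but not healthy dog 2, all arrays were at or near background in PCK1 probe B, while malignant minus healthy arrays gave -5.48 and -9.29 on slides 2 and 5, which hold healthy dog 2.

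**Figure D2:**
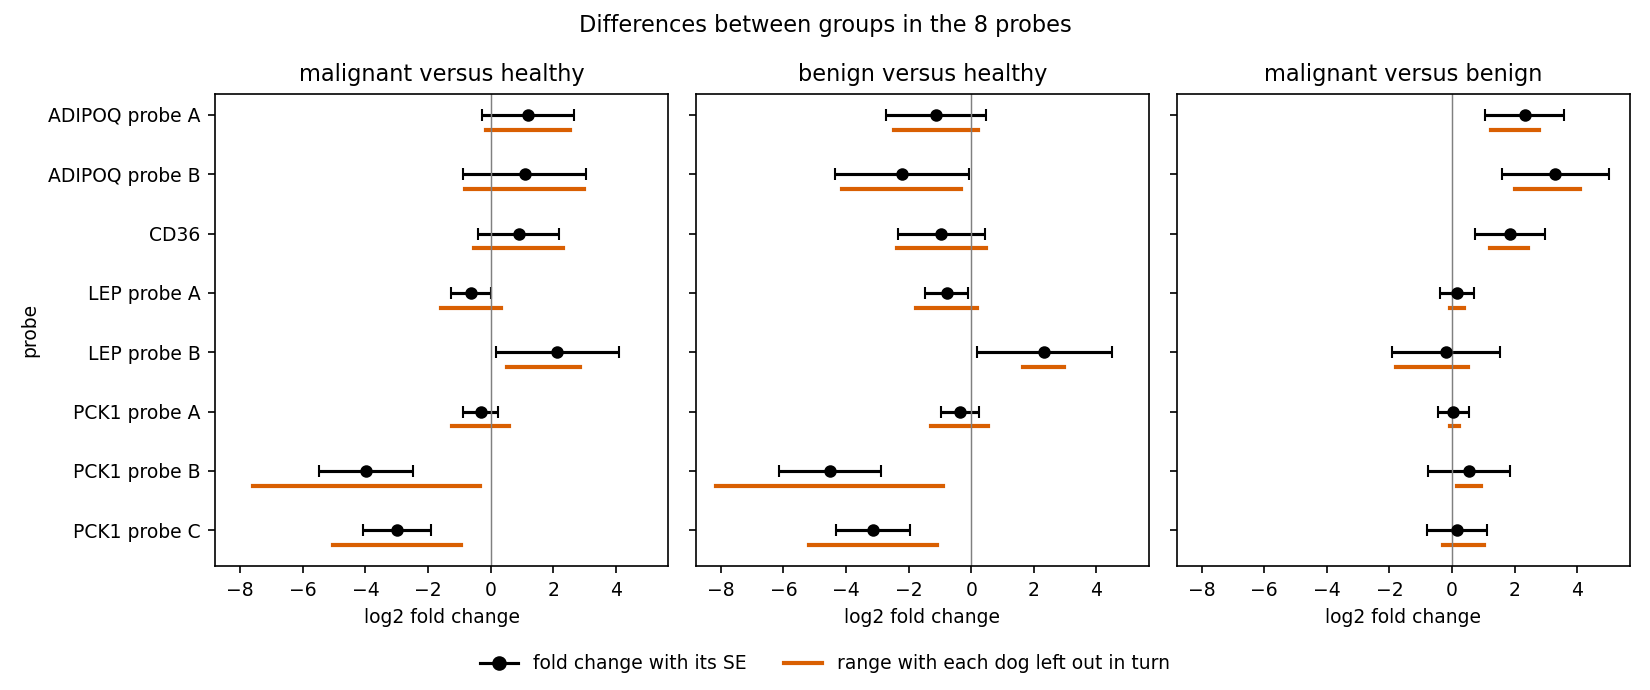
Log2 fold changes of the 8 probes (horizontal axis) in the 3 comparisons, with their SE (black) and the range when each dog is left out in turn (orange). The ranges for ADIPOQ probe A and CD36 cross 0 in both comparisons with healthy tissue and stay above 0 between malignant and benign tumours, and those of PCK1 probe B reach from -7.60 to -0.34 in malignant tumours against healthy tissue.

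Whether LEP and PCK1 followed ADIPOQ and CD36 was asked over the dogs, with probe A of each gene and 6 pairs of genes. ADIPOQ and CD36 went together over all 10 dogs, with Pearson's r = 0.920 (permutation p = 0.0001 with 100000 resamples, adjusted p = 0.0006) and Spearman's coefficient = 0.855 (permutation p = 0.00302, adjusted p = 0.0181). Without malignant dogs 2 and 5, the farthest from the median of ADIPOQ, r was 0.868 (exact permutation p = 0.0065, 8 dogs), and without healthy dog 2 as well it was 0.684 (exact permutation p = 0.0917, 7 dogs). The relation of the 2 genes thus leans on these 3 dogs, in which both are highest. ADIPOQ probe B went less closely with CD36, with r = 0.876 over 10 dogs (permutation p = 0.00126, adjusted p = 0.0118 over 28 pairs chosen after seeing the data) but a Spearman's coefficient of 0.539 (permutation p = 0.115). Without malignant dogs 2 and 5 that r was 0.588 (exact permutation p = 0.125, 8 dogs), and it was 0.0136 over 7 dogs without healthy dog 2 as well and -0.0118 over 6 tumours. The 2 healthy dogs lay among the tumours in both genes. Over the 8 tumours alone r was 0.913 (exact permutation p = 0.00161, adjusted p = 0.00967) and Spearman's coefficient was 0.786 (exact permutation p = 0.0279, adjusted p = 0.168). Without malignant dogs 2 and 5 it was 0.638 over 6 tumours (exact permutation p = 0.174), so that among tumours the relation rests on these 2 dogs. Without malignant dog 5 alone it was 0.932 over 9 dogs (permutation p = 0.00059). Among tumours the adjusted p passed the threshold no longer when malignant dog 2 or malignant dog 5 was left out, although r was 0.938 and 0.917. No slide holds more than 4 dogs, and correlations were not computed within slides.

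LEP probe A showed no relation with either gene that passed the test. Over all 10 dogs r was -0.0303 with ADIPOQ (permutation p = 0.93, Spearman's coefficient = 0.115 with p = 0.756) and 0.0073 with CD36 (permutation p = 0.984, Spearman's coefficient = 0.321 with p = 0.366), with adjusted p of 0.984 for both values of r. Over the 8 tumours r was 0.298 with ADIPOQ (exact permutation p = 0.43) and 0.431 with CD36 (exact permutation p = 0.289), with adjusted p of 0.43 and 0.347. Spearman's coefficient over the tumours was larger, at 0.524 (exact permutation p = 0.197, adjusted p = 0.295) and 0.667 (exact permutation p = 0.0831, adjusted p = 0.249). Without the 2 dogs farthest from the median, malignant dogs 2 and 5, r was -0.165 with ADIPOQ and 0.0005 with CD36 over 8 dogs, and 0.638 and 0.759 over 6 tumours. The sign of both values over all dogs changed with the scaling or the dogs used.

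LEP probe B was set beside the others in a comparison of all 28 pairs of probes that was chosen after seeing the data. Its r with ADIPOQ probe A was 0.724 over all 10 dogs (permutation p = 0.0612, adjusted p = 0.214), and its Spearman's coefficient was 0.0667 (permutation p = 0.865). Without malignant dog 5 the same r was -0.135 over 9 dogs (permutation p = 0.726). With CD36 it was 0.502 (permutation p = 0.134) and -0.188 without malignant dog 5 (permutation p = 0.622). LEP probe B thus went with ADIPOQ and CD36 in malignant dog 5 and in no wider run of dogs. The 2 LEP probes did not go together, with r = -0.192 over 10 dogs (permutation p = 0.563). The 2 ADIPOQ probes did, with r = 0.953 over 10 dogs (permutation p = 0.0005, adjusted p = 0.007) and 0.892 without malignant dog 5, but this too leans on the 3 high dogs. Without malignant dogs 2 and 5 and healthy dog 2 it was 0.385 over 7 dogs (exact permutation p = 0.399), and it was 0.394 over the 6 tumours that are left without malignant dogs 2 and 5 (exact permutation p = 0.44).

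PCK1 probe A gave positive values with both genes, but none passed the test. Over all 10 dogs r was 0.475 with ADIPOQ (permutation p = 0.167, adjusted p = 0.334, Spearman's coefficient = 0.479 with p = 0.168). With CD36 it was 0.533 (permutation p = 0.115, adjusted p = 0.334, Spearman's coefficient = 0.455 with p = 0.193). The probe was well above background on 12 of 19 arrays, and both values of r moved with the alternatives. With ADIPOQ r ranged from 0.230 (levels at background raised) to 0.656 (without malignant dog 5). With CD36 r ranged from 0.084 (normexp) to 0.638 (without benign dog 2). Over the 8 tumours r was 0.464 with ADIPOQ (exact permutation p = 0.266, adjusted p = 0.347, Spearman's coefficient = 0.333 with p = 0.428) and 0.473 with CD36 (exact permutation p = 0.25, adjusted p = 0.347, Spearman's coefficient = 0.214 with p = 0.619). Without malignant dogs 2 and 5 these were 0.781 and 0.675 over 8 dogs (exact permutation p = 0.0333 and 0.0584, unadjusted), but 0.103 and 0.0819 over 6 tumours. With healthy dog 2 left out as well they were 0.285 and 0.214 over 7 dogs, so that the values over 8 dogs rest on healthy dog 2. Healthy dog 2, highest in all 3 PCK1 probes, came after malignant dogs 5 and 2 in ADIPOQ and CD36, and malignant dog 5, highest in both of these, was the highest tumour in PCK1 probe B, at -4.41 and well above background, but was not well above background in PCK1 probe C. PCK1 probe B had an r of 0.403 with ADIPOQ probe A over 10 dogs (permutation p = 0.138) and 0.806 over the 8 tumours (exact permutation p = 0.0159, adjusted p = 0.089 over 28 pairs), which was 0.199 without malignant dogs 2 and 5 (exact permutation p = 0.731). With ADIPOQ probe B it was 0.838 over the tumours (exact permutation p = 0.00883, adjusted p = 0.074) and 0.448 without malignant dogs 2 and 5. ADIPOQ probe B and PCK1 probe C had an r of 0.249 over 10 dogs and 0.158 over the tumours. Without malignant dogs 2 and 5 it was 0.908 over 8 dogs (exact permutation p = 0.00389, unadjusted), although most arrays were at background in PCK1 probe C. LEP probe A and PCK1 probe A had an r of -0.155 over all dogs (permutation p = 0.657, Spearman's coefficient = 0.0303 with p = 0.945) and of 0.591 over the tumours (exact permutation p = 0.126, Spearman's coefficient = 0.548 with p = 0.171). Without the 2 dogs farthest from the median of LEP these were 0.132 and -0.106. The value over tumours passed the test only in the table of signals of all 22 arrays, where it was 0.791 over 9 tumours (permutation test, adjusted p = 0.0348).

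**Figure D3:**
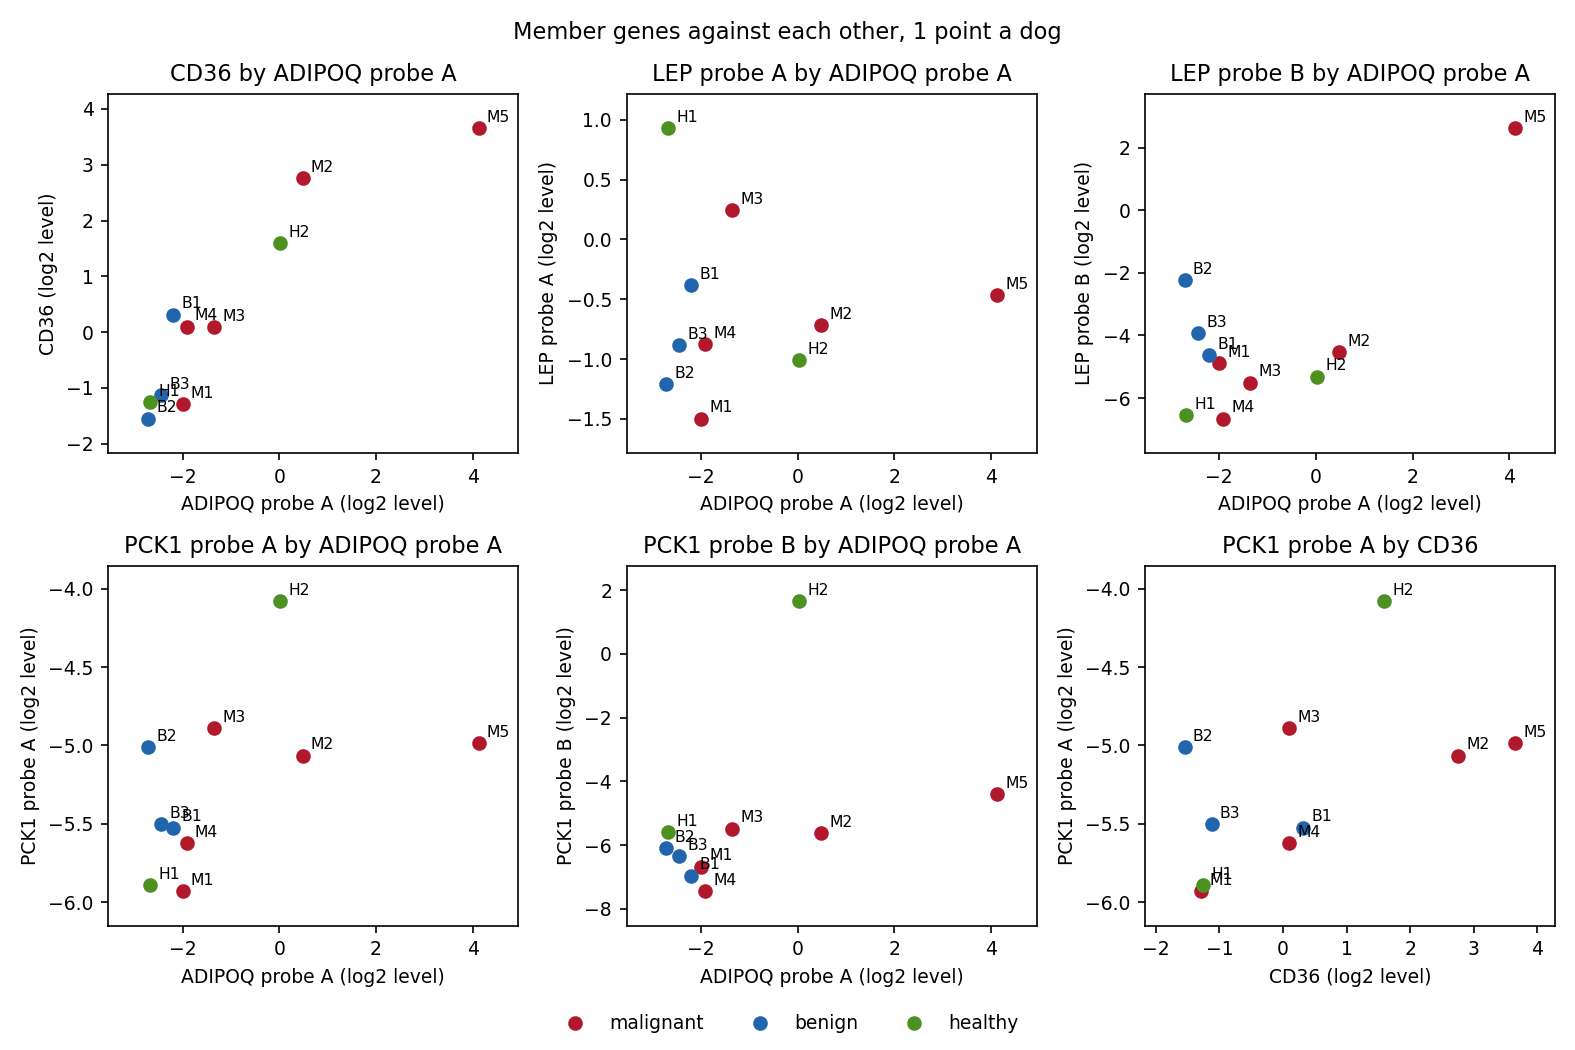
Levels of pairs of probes in 10 dogs, 1 point a dog, with log2 levels on both axes and colours for malignant, benign and healthy dogs. CD36 climbs with ADIPOQ probe A from benign dog 2 to malignant dog 5 (r = 0.920), LEP probe B is high in malignant dog 5 alone, and PCK1 probe B is high in healthy dog 2 alone.

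The genes whose pattern was most like each member over the 10 dogs were sought among about 1070 genes with a symbol that were well above background on at least 15 of 19 arrays. ADIPOQ probe A was most like MLANA (r = 0.956), PPARG (0.933), CD36 (0.920), LOC481674 (0.859) and RLN2 (0.830). CD36 was most like LOC481674 (r = 0.946), ADIPOQ (0.920), MLANA (0.866), PPARG (0.820) and ST6GALNAC2 (0.798). MLANA, known as a melanocyte antigen, was at 3.83 in malignant dog 5, -0.26 in malignant dog 2, and between -5.28 and -2.50 in the other dogs. Without malignant dog 5 its r with ADIPOQ probe A was 0.835, whereas that of RLN2 was 0.192. LEP probe A was most like FUT5 (r = 0.939), MRGPRG (0.936), ELANE (0.935), LOC475395 (0.924) and CE10 (0.919), none of which is in the lists of adipose genes used here. PCK1 probe A was most like DPT (r = 0.784), VIM (0.769), PDGFRB (0.756), CYP1A2 (0.748) and AQP1 (0.740). These values are descriptions over 10 dogs that share their groups and slides, and no test was made of them.

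The wider adipose programme was described with 7 lists of 95 genes. The names table pairs 27 of the 95 with a probe and 24 were tested, and limma called 0 of 24 in each comparison. With healthy dog 2 left out, DIO2 in benign tumours stood at a log2 fold change of 7.47 against the single healthy dog that remains. DIO2 was at background in that dog, so this value has no exact size. At an unadjusted p of 0.05 limma passed 1 of 24 in malignant tumours against healthy tissue (PPARD), 2 of 24 in benign tumours (PPARD and DIO2) and 0 of 24 between the tumour groups, where 5.81%, 6.79% and 1.8% of all probes passed. The methods' t-test without adjustment passed 1, 0 and 1 of 24, where it passed 4.01%, 4.86% and 2.27% of all probes, and 0 with it. The median log2 fold change of the 24 genes was 0.20 in malignant tumours against healthy tissue, beside 0.07 over all probes, with 15 of 24 above 0. In benign tumours it was -0.05 beside 0.03, with 9 of 24 above 0. It was -0.45 beside -0.49 over all probes after normexp and -0.32 beside -0.36 in the table of signals. It turned to 0.09 with the dog number as a block and 0.10 without benign dog 1. Between malignant and benign tumours it was -0.01 beside 0.06, with 11 of 24 above 0. After normexp it was 0.30 beside 0.33 over all probes. In the tables of signals of 19 and 22 arrays it was 0.19 beside 0.24 and 0.21 beside 0.26, so the median of all probes moved with it. It turned to 0.16 over probes well above background on every array. Without malignant dogs 1 and 4 in turn it was 0.10 and 0.11, and without benign dogs 2 and 3 in turn 0.08 and 0.10. The medians against healthy tissue moved with the healthy dog used. Leaving out healthy dog 1 gave -0.42 in malignant and -0.62 in benign tumours, and leaving out healthy dog 2 gave 0.61 and 0.65. The median in malignant tumours also turned to -0.13 without malignant dog 5, -0.11 with the slide as a block, -0.12 with the dog number as a block and -0.09 after normexp, and to -0.02 in the table of signals. Malignant dog 5 was the highest dog in 7 of the 24 genes, beside 20% of all probes, and healthy dog 2 in 3 of 24, beside 4.58%. Benign dog 3 and malignant dog 3 were each highest in 4 of 24, beside 7.96% and 21.3%. Benign dog 1 was highest in 2 of 24, beside 3.84%.

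The lists did not behave as one. Of the adipokines and their receptors 4 of 15 genes were tested, with log2 fold changes from -1.24 to 1.19 in malignant tumours against healthy tissue. All 4 tested genes of fatty acid uptake and the lipid droplet (CD36, CAV1, CAV2 and VLDLR, of 18 in the list) lay above 0 in that comparison, from 0.25 to 0.89, and none passed the test. With malignant dog 5 left out only CD36 lay above 0 (0.25), and CAV1 (-0.23), CAV2 (-0.20) and VLDLR (-0.30) lay below it. CAV1 and CAV2, the caveolins that coat the surface pits of adipocytes and endothelium, were both at 4.50 in malignant dog 5, the highest of the 10 dogs, and were named after their values were seen. Of triglyceride synthesis only PCK1 was tested, and SLC2A4, the insulin-dependent glucose transporter, was well above background on 1 array. Of lipolysis 4 of 12 genes were tested, from -0.82 to 0.46 in malignant and from -1.04 to 0.90 in benign tumours against healthy tissue. HCAR1, the lactate receptor of adipocytes, was well above background on 1 array and stood at -3.30 in malignant dog 5, against -6.80 or less in every other dog, and was also named after its values were seen. Of insulin signalling 2 of 10 genes were tested, IGF1 and AKT2.

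PPARG, the nuclear receptor that drives adipocyte differentiation, was highest in malignant dog 5 with both of its probes, as ADIPOQ was. The r of its brighter probe with ADIPOQ probe A was 0.933 over 10 dogs and 0.737 without malignant dog 5. Its brighter probe was at -1.38, 0.53, -0.83, -2.32 and 5.09 in malignant dogs 1 to 5. It was at -0.99, -0.55 and -2.89 in the benign dogs and at -2.86 and -0.08 in the healthy dogs. The dimmer probe was at 0.74 in malignant dog 5 and between -7.74 and -3.25 in all others. The same 3 dogs were highest in PPARG as in ADIPOQ and CD36. PPARG showed the largest log2 fold change of the lists in malignant tumours against healthy tissue (1.69, SE 1.68, adjusted p = 0.955), followed by DIO2 (1.56, adjusted p = 0.955) and PPARD (1.54, adjusted p = 0.842). Without malignant dog 5 the value of PPARG was 0.47, below those of DIO2 (1.54), PPARD (1.32), UCP1 (1.31) and UCP2 (0.58). Among genes well above background on enough arrays to be named the lowest were IGF1 (-0.95, adjusted p = 0.97), ADRB3 (-0.82, adjusted p = 0.956) and CPT1A (-0.70, adjusted p = 0.947). In benign tumours the largest were DIO2 (3.91, SE 1.68, adjusted p = 0.723), PPARD (1.73, adjusted p = 0.704) and UCP1 (1.095, adjusted p = 0.938), and the lowest were ADIPOQ (-1.13), CPT1A (-1.08, adjusted p = 0.787) and ADRB1 (-1.04, adjusted p = 0.797). DIO2, which activates thyroid hormone, was at background in healthy dog 1 (-6.58) and at 0.54 in healthy dog 2, so that its log2 fold changes against healthy tissue have no exact size. LEPR, the leptin receptor, was well above background on 0 of 19 arrays. LPL, FABP4 and PLIN1 were not analysed here.

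The summed levels set malignant dog 5 apart in some parts of the programme only, and it was the highest dog in 3 of 7 adipose lists. The adipocyte transcription factors (4 of 15 genes, PPARG the brightest) summed to 35.2 in malignant dog 5 and to 1.03 to 2.46 in all other dogs, in multiples of the 75th percentile. In malignant dog 5 nearly all of this was PPARG, and PPARA of the same list was lowest there of all dogs, at -4.11. Fatty acid uptake (4 of 18 genes, CAV1 the brightest) summed to 60.4 in malignant dog 5, 23.3 in healthy dog 2, 22.8 in malignant dog 2 and 2.53 in malignant dog 3, the lowest. The thermogenesis list (5 of 7 genes, CPT1A the brightest) was lowest in malignant dog 5, at 1.76, and highest in benign dog 1, at 7.00. The lipolysis list (5 of 12 genes, ADRB3 the brightest) was highest in malignant dog 3, at 22.6, and the insulin signalling list (2 of 10 genes, IGF1 the brightest) in healthy dog 2, at 3.22. The triglyceride synthesis list (2 of 18 genes, PCK1 the brightest) was at most 0.0699 in any dog, in healthy dog 2. In bulk tissue fewer adipocytes and less RNA per adipocyte cannot be told apart, and neither can more of either.

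Markers of other tissues also differed between these dogs, and their part in the levels of the 4 genes was not tested. Malignant dog 2, second in ADIPOQ and CD36, had by far the highest summed level of 3 milk protein genes, 631.5 with CSN2 the brightest, against 0.306 in malignant dog 5 and 14.0 in healthy dog 2. The macrophage list (8 of 15 genes, SLC11A1 the brightest) summed to 79.5 in malignant dog 5, 36.0 in malignant dog 2 and 31.9 in healthy dog 2, and was highest in benign dog 3 with 110.1, a dog low in CD36. The endothelial list (7 of 13 genes, VWF the brightest) summed to 10.9 in malignant dog 5, the lowest of all dogs, and to 74.6 in healthy dog 2, the highest. Beside PCK1, the liver list (7 of 16 genes, SERPINA1 the brightest) summed to 14.2 in healthy dog 2 and 7.79 in healthy dog 1, with 9.18 to 82.0 in the tumours, and its genes CYP2E1 and CYP3A26 were well above background on 0 arrays. The kidney list (5 of 11 genes, UMOD the brightest) was at 0.666 in healthy dog 2 and 5.46 in healthy dog 1. The exocrine pancreas list (7 of 20 genes, PLA2G1B the brightest) and the islet list (6 of 7 genes, INS the brightest, with 786.6 in healthy dog 1 and 28.1 in healthy dog 2) were higher in healthy dog 1, in which ADIPOQ and CD36 were low, than in healthy dog 2. Against healthy tissue limma called 6 of 7 exocrine pancreas genes lower in both tumour groups, 3 of 6 islet genes lower in malignant and 2 of 6 in benign tumours, 1 of 5 kidney genes lower in both and 1 of 8 macrophage genes higher in benign tumours, and no gene of the remaining lists was called. Stroma and smooth muscle genes (6 of 13, COL1A2 the brightest) summed to 1211 in healthy dog 2 and 78.2 in healthy dog 1 and were highest in malignant dog 3, at 1991. In malignant dog 5 they summed to 443, most of it VIM (8.56), while COL1A2 was at 3.64 there, the lowest of all tumours. The skeletal muscle list (6 of 14 genes, CKM the brightest) was highest in malignant dog 2 with 7.95 and at 0.759 in healthy dog 2, and the intestine list (2 of 10 genes, SLC15A1 the brightest) was at most 1.67 in any dog.

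**Figure D4:**
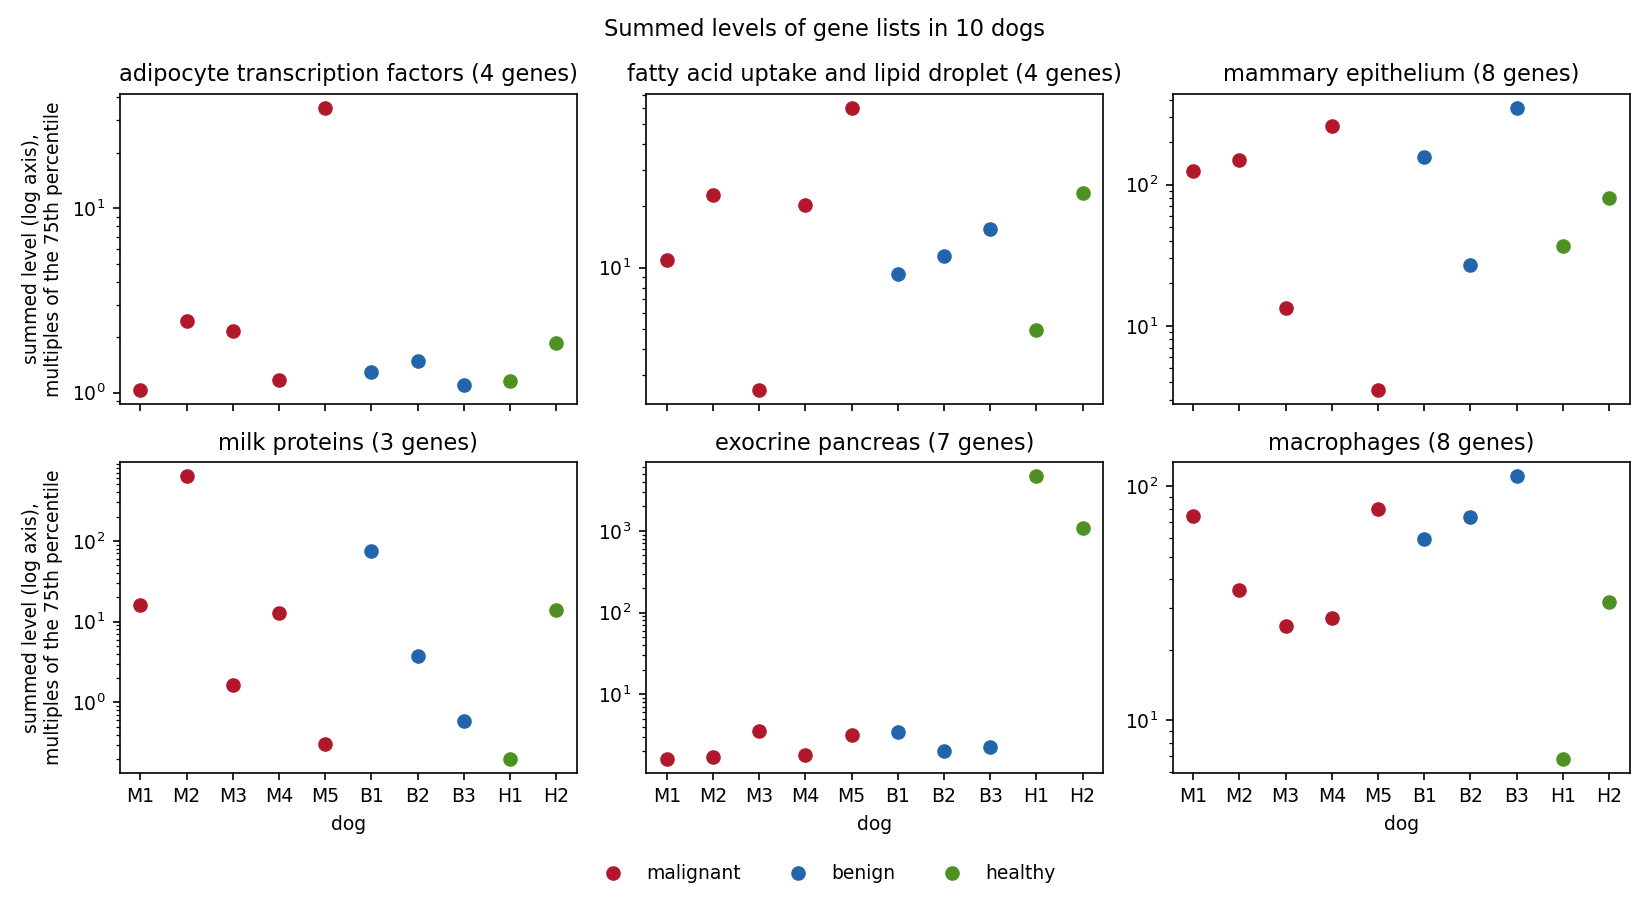
Summed levels of 6 gene lists in 10 dogs, in multiples of the 75th percentile of the array on a log axis, 1 point a dog. The adipocyte transcription factors stand at 35.2 in malignant dog 5, nearly all of it PPARG, where the mammary epithelium list is lowest at 3.51, and the exocrine pancreas list stands at 4638 and 1067 in the healthy dogs.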

How the data were processed

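RNA of 19 arrays was analysed from scanner values, and 3 more arrays (malignant 5b, 6a and 6b) only from the table of signals. Both kinds of values that the authors deposited are intensity values on a linear scale. Per the file headers they come from Agilent Feature Extraction 11.5.1.1, whereas the text of the study names another version. The processed signal has the background taken off, and the table of signals equals the median signal of the spots on all 19 arrays and thus still holds the background, unscaled. From these, log2 of the processed signal minus the 75th percentile of each array was computed over 43803 spots other than controls (45220 spots, 1417 controls), leaving out outlier spots. The 50 probes with 5 spots were averaged, then the arrays of each dog. No spot was saturated.

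Symbols came from a RefSeq gene table of the assembly UU_Cfam_GSD_1.0 by target transcript, which named 2348 of 2441 probes for NM transcripts, and no coordinates were used. Of 43603 probes, 35310 were well above background on at least 4 arrays and were tested in 1 fit of 3 groups over 10 dogs with limma (version 3.58.1, R version 4.3.3, files read by data.table, version 1.17.8) and Benjamini-Hochberg adjustment over all probes tested at 0.05. The script was tested on simulated data. Correlations used permutation tests, 2-sided, of 100000 resamples, or exact for fewer than 9 dogs, in Python 3.11.15 with numpy 2.4.6, scipy 1.17.1, pandas and matplotlib 3.10.9.

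Genes named by rule are the 4 members with every probe, every gene of the adipose lists called, those lists' 3 largest rises and falls in each tumour group against healthy tissue among genes that 50% or more of the arrays in each group show well above background, and the 5 genes most like each member, beside PPARG, LPL, LEPR, FABP4 and PLIN1. Further genes of the adipose and other lists, among them the brightest of each list, are named outside this rule. The members and lists were chosen with earlier results of these data known.

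Alternatives were normexp (offset 50, on the median signal of spot and background, since the mean signal was not used here), quantile normalization, another percentile, the table of signals of 19 or 22 arrays, other filters, only the groups compared, each dog left out, the dog number, slide or dog as a block, the mean over probes, 1 probe a target, a variance trend and the methods' t-test, unpaired because the groups are different dogs and adjusted by Benjamini-Hochberg in place of the correction the study names. Raised levels at background, all 28 pairs of probes and the lists without malignant dog 5 were added after seeing the data.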

Additional observations from a re-analysis of the deposited data

Results flagged for a closer look

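LEP probe B was far from the other malignant dogs in malignant dog 5, at 2.62 against -6.65 to -4.54 in the other 4, and was the only one of the 8 probes with such a gap among malignant dogs (chance gives about 1 in 20 groups). No other group has enough dogs for this comparison.

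The table of signals holds 3 arrays without scanner values, and several probes were above all 4 healthy arrays there. These signals have no background taken off, so low levels are drawn together. On the second array of malignant dog 5, ADIPOQ probe A was at 4.02, ADIPOQ probe B at 3.37, CD36 at 3.67 and LEP probe B at 2.37, so that the high levels of this dog were found on a second array. PCK1 probe A was at -2.39 there, against at most -2.63 on the healthy arrays, but at -3.10 on the first array of the same dog, below all 4 healthy arrays. Malignant dog 6 was at 1.76 in CD36 on its second array, just above the highest healthy array (1.67), and at 1.65 on its first, while ADIPOQ probe A was at -2.08 and -1.91, in the range of the benign arrays. LEP probe B was at -2.13 on both arrays of malignant dog 6 (-2.1273 and -2.1284), against at most -2.98 on the healthy arrays, and PCK1 probe A was at -2.54 and -2.51. These differences were not tested.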

How the results depend on the processing

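No fold change of probe A of any member passed the test under any alternative, and of the other probes only PCK1 probe B did, without healthy dog 1. Dogs of different groups were treated as different dogs even where they share a number. The deviations of same-numbered dogs had an r from -0.17 to 0.11, with 1 of 7 pairs above 0.1. Dogs of unlike number gave -0.25 to 0.28, with 6 of 24 pairs above 0.1. The 2 healthy dogs deviate from their mean as mirror images, so these values cannot decide whether a shared number marks the same dog. With the number as a replicate block the count of probes called was 89 in malignant and 85 in benign tumours against healthy tissue. The counts in malignant and benign tumours were 47 and 41 over probes well above background on every array and 88 and 81 with 1 probe a target, where fewer probes were tested, and 37 in benign tumours with only the groups compared, where fewer dogs were in the fit. The methods' t-test called 1417, 1717 and, between the tumour groups, 803 probes without adjustment and 32, 0 and 0 with it. With each dog left out the 3 counts ranged from 96 to 950, from 86 to 993 (the low ends without healthy dog 1, the high ends without healthy dog 2) and from 0 to 2. Of those called in benign tumours 36 of 135 were higher without benign dog 1, and with arrays not averaged 28 of 195 were higher in malignant and 54 of 199 in benign tumours.

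With the mean over probes in place of probe A, LEP turned to 0.76, 0.78 and -0.018 in the 3 comparisons. LEP probe B turned to -0.25 in benign tumours against healthy tissue with normexp. Between the tumour groups it turned to 0.94 with normexp, 0.76 and 0.77 in the tables of 19 and 22 arrays and 0.26 with raised levels. The cause of these turns was not tested.

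With each dog left out, the log2 fold change in malignant tumours against healthy tissue ranged from -0.16 to 2.54 for ADIPOQ probe A, -0.81 to 2.99 for probe B, -0.53 to 2.32 for CD36, -1.59 to 0.35 for LEP probe A and -1.22 to 0.59 for PCK1 probe A. In benign tumours it ranged from -2.48 to 0.22 for ADIPOQ probe A, -2.38 to 0.47 for CD36, -1.75 to 0.18 for LEP probe A and -1.27 to 0.54 for PCK1 probe A. The upper ends for ADIPOQ probe B and for PCK1 probe A in either tumour group, all without healthy dog 2, have no exact size. Healthy dog 1 was at background on both arrays in these probes. Between the tumour groups the log2 fold change ranged from -0.0647 to 0.38 for LEP probe A and -1.80 to 0.52 for LEP probe B. For PCK1 probe A it ranged from -0.054 to 0.22 and for PCK1 probe C from -0.29 to 1.01.

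Over all dogs the r of ADIPOQ and LEP turned to 0.132 with normexp, 0.0696 and 0.0604 in the tables of 19 and 22 arrays and 0.7104 with the mean over probes, and ranged from -0.159 to 0.259 with each dog left out. That of CD36 and LEP turned to -0.0071 with quantile normalization and -0.0288 with another percentile, and ranged from -0.156 to 0.371. That of LEP and PCK1 turned to 0.633 with normexp and in the table of 19 arrays (0.6327 and 0.6334), 0.631 in that of 22 and 0.464 with raised levels, and ranged from -0.426 to 0.235. Over tumours it was 0.791 in the table of 22 arrays, and the r of ADIPOQ and CD36 ranged from 0.907 to 0.938 with each dog left out and was lowest in the table of 22 arrays, at 0.826. Of all fold changes under alternatives 33 turned, and of the correlations 17 did.

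The main limits are the 2 healthy dogs, whose samples also carry pancreas genes, the single array of malignant dog 5 and levels at background. At background lie most tumour arrays of PCK1 probes B and C and all healthy arrays of LEP probe B. So do both arrays of healthy dog 1 in ADIPOQ probe B and PCK1 probe A. The low values there have no order.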
